A study of Mus musculus with 73 samples.

Results

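Slc38a4, Slc38a1 and Gm32885 are 3 genes of mouse chromosome 15, picked by name from the 30546 genes of the deposited table. Slc38a4 (GRCm38.p6, the mm10 assembly, chr15:96994816-97055956) and Slc38a1 (chr15:96571418-96643438) are protein coding. Gm32885 (chr15:97161014-97167244) is a long noncoding RNA. In the deposited table Gm32885 lies 101.2 kb beyond the 5′ end of Slc38a4, and Slc38a1 ends 351.9 kb from its 3′ end. The gene Slc38a2 stands between Slc38a1 and Slc38a4. All 3 genes were read in all 72 RNA libraries, with 105336 reads for Slc38a4, 28098 for Slc38a1 and 311557 for Gm32885 over all libraries together. The reciprocal wild-type crosses were used to look for parental bias of the 3 genes. They cannot tell a noncanonical from a canonical imprint, so they do not check that label of the region.

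Imprinted genes are read mainly or only from the copy inherited from 1 parent. At most of them the silent copy carries DNA methylation laid down in the egg or the sperm. At a small class, called noncanonical, the maternal copy comes out of the egg with histone H3 trimethylated at lysine 27 and is silenced without egg-derived DNA methylation. In the lineage that forms the placenta, DNA methylation takes over at these genes later. Slc38a4 is paternally expressed and is listed here in this class. Whether its maternal copy carries egg-derived DNA methylation was not measured in these libraries. Slc38a1, Slc38a2 and Slc38a4 encode SNAT1, SNAT2 and SNAT4, sodium-coupled transporters that carry small neutral amino acids such as alanine into cells. The placenta uses such transporters to move amino acids to the fetus. Gm32885 is a predicted RNA without an assigned function.

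Epiblast, which forms the embryo proper, and extraembryonic ectoderm (ExE), which feeds the placenta, were dissected from mouse embryos at embryonic day 6.5. RNA was sequenced in bulk, and reads over polymorphisms were assigned to the BDF1 allele (BDF1 mice are hybrids of C57BL/6 and DBA) or to the CAST allele. In every group 1 parent was BDF1 and the other CAST. Wild-type BDF1xCAST embryos (mother named first) came from sperm injection and transfer to CD-1 foster mothers and gave 7 epiblast and 7 ExE libraries. Wild-type CASTxBDF1 embryos came from natural mating and gave 4 of each, so that cross and mode of conception cannot be told apart. The knockout embryos were BDF1xCAST, and received Cas9 mRNA and guide RNAs as zygotes, so each is an embryo edited on its own and may be a mosaic. Dnmt1, which copies DNA methylation at cell division, was targeted in 3 epiblast and 3 ExE libraries. G9a and Glp, which methylate lysine 9 of histone H3, were targeted together in 6 and 8. Rnf2, the ubiquitin ligase of Polycomb repressive complex PRC1, was targeted in 6 and 5. Eed, a core subunit of PRC2, which trimethylates lysine 27 of histone H3, was targeted in 9 and 10.

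A promoter of Slc38a4 and one of Gm32885 are shown because these genes were read mainly from the paternal copy in both tissues. Methylation at CG pairs is also one of the marks that the targeted enzymes maintain. The sequences are RefSeq reference sequence of GRCm38.p6, minus strand, from 250 bases before to 50 bases after the annotated start, and every CG pair is in capitals.
Slc38a4, chr15:97055907-97056206: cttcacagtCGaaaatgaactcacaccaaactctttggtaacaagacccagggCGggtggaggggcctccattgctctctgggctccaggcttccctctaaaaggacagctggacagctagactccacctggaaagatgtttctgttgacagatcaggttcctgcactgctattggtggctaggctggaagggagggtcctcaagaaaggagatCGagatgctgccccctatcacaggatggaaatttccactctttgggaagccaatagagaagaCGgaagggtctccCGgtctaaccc
Gm32885, chr15:97167195-97167494: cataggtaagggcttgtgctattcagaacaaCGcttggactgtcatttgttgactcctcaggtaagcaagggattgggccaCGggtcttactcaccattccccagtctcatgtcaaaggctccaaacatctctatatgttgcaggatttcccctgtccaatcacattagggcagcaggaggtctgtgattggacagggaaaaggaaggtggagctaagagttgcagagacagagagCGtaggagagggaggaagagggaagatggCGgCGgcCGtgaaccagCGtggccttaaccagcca
The Slc38a4 window holds 5 CG pairs and the Gm32885 window 7, against a median of 7 over 32851 mouse promoters of the same length. The promoter of Slc38a2 holds 41, a number reached by 3.458% of those promoters. The motif TGCCGC, part of the sequence bound by the imprint-guarding factor Zfp57, was searched on both strands and does not occur in either of the printed windows; 11.6% of the promoters hold it. Methylation of these windows was not measured in the libraries described here, and Slc38a1 was matched to no promoter sequence. Other annotated Slc38a4 promoters, chr15:97031164-97031463 and chr15:97020310-97020609, are not printed and hold 5 CG pairs each. Reads counted per gene do not show which start was used.

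Total reads over polymorphisms ran from 1141414 to 17653087 per library, the Rnf2 epiblast libraries being the deepest. Per library there were 116 to 7070 reads for Slc38a4, 115 to 2549 for Slc38a1 and 19 to 15395 for Gm32885. The maternal share is known only within 0.5 percentage points for Slc38a4 in 25 libraries and for Gm32885 in 35, because only the rounded deposited ratio gives it there. In 6 knockout libraries no targeted mRNA used in this check was below that of the second lowest wild-type BDF1xCAST library: Dnmt1 ExE 1, G9a-Glp epiblast 2 and 7, and Rnf2 ExE 2, 5 and 6. For G9a-Glp, 1 low mRNA of Ehmt1 (Glp) and Ehmt2 (G9a) was taken as enough. Ehmt1 was low in 4 of 6 epiblast and 5 of 8 ExE libraries and Ehmt2 in 8 of 8 ExE libraries. Ehmt2 was not used in epiblast, where its wild-type mean was under 10 CPM and it was low in 1 of 6. In these 6 libraries the targeted mRNA is called not low, which does not mean equal to wild type. In ExE, Rnf2 mRNA was at 23.68 CPM in the second lowest wild-type library. Its median was 51.67 CPM in wild type and 29.55 CPM in the knockout. Results that lose their call without the 6 libraries are named where they occur. In wild-type BDF1xCAST epiblast the 8 epiblast markers summed to 3473 to 5745 reads scaled to 1000000 per library (CPM), against 734 to 1218 in ExE, where Pou5f1 was at 0. In ExE the 11 visceral endoderm markers summed to 12.8 to 27.5 CPM in wild-type BDF1xCAST, 16.3 to 47.3 in Dnmt1, 20.3 to 145 in G9a-Glp, 23.0 to 49.9 in Rnf2 and 39 to 77 in Eed. In epiblast they summed to 8.92 to 762 CPM in wild-type BDF1xCAST, 47.6 to 317 in Dnmt1, 13.5 to 396 in G9a-Glp, 18.1 to 125 in Rnf2 and 31.1 to 82.0 in Eed. The 7 markers of the maternal decidua were all at 0 in wild-type BDF1xCAST ExE. They summed to 0 to 2.92 CPM in Dnmt1, 0 to 2.98 in G9a-Glp, 0.585 to 3.90 in Rnf2 and 0.782 to 7.47 in Eed ExE. Prl8a2, Hoxa10, Hoxa11, Hand2 and Dcn were at 0 in every Dnmt1 ExE library. Prl8a2, Hoxa10, Hoxa11 and Hand2 were at 0 in G9a-Glp ExE, Prl8a2 and Dcn in Rnf2 ExE, and Dcn in Eed ExE. For the visceral endoderm and the decidua markers, every knockout thus had ExE libraries with a higher sum than any wild-type BDF1xCAST library. Whether the small decidua sums come from decidual cells was not tested. The part of either cell type in the maternal shares was not tested.

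In wild-type embryos Slc38a4 was read almost wholly from the paternal copy in both tissues, whichever strain was the father. Gm32885 showed the same direction of bias. Slc38a1 showed a partial bias of this direction in ExE. In BDF1xCAST epiblast the maternal share of Slc38a4 reads had a lowest value of 0.274%, a median of 0.735% and a highest value of 6.33%. In CASTxBDF1 epiblast it was 2.95, 12.7, 0 and 0.862% in embryos 1 to 4. Both crosses thus lay far below an equal share, and 1 library of each cross, BDF1xCAST embryo 8 and CASTxBDF1 embryo 2, stood above the rest. Those libraries also had the highest summed level of 11 visceral endoderm markers, 762 CPM against a group median of 25.7 and 3052 CPM against 66.4, and the part of these cells in the share was not tested. In ExE no wild-type library of either cross had a maternal share above 1.00% as deposited.

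The fit over both crosses gave Slc38a4 a maternal over paternal log2 ratio of -5.24 (SE 0.31) in epiblast (edgeR quasi-likelihood adjusted p = 2.75e-10) and of -7.62 (SE 0.26) in ExE (edgeR adjusted p = 7.48e-14). Rounding of the deposited ratio lets the ExE value lie between -8.42 and -6.72. Gm32885 had a ratio of -2.95 (SE 0.19) in epiblast and of -4.55 (SE 0.28) in ExE (edgeR adjusted p = 1.01e-09 and 8.28e-10). In epiblast 2 of the 3 genes passed, in ExE 3 of 3, where 0.319% and 0.832% of all genes tested did. Slc38a4 showed no strain term that passed. Gm32885 leaned to the CAST allele, with BDF1 over CAST log2 ratios of -0.73 in epiblast and -0.74 in ExE (edgeR adjusted p = 0.00475 and 0.0254), in a test that 43.0% and 49.2% of genes passed.

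Gm32885 was scarce in wild-type epiblast, and its maternal share there rests on few reads. In BDF1xCAST epiblast the share ran from 3.33% over a median of 7.84% to 10.4%. In CASTxBDF1 epiblast it was 42.1, 23.1, 15.0 and 8.28% in embryos 1 to 4. The highest of these comes from 19 reads, with an exact (Clopper-Pearson) 95% interval of 20.3 to 66.5% that covers counting error only. In ExE 6 of the 7 BDF1xCAST libraries had a share near 2% and embryo 8 had 7.00%. The CASTxBDF1 ExE libraries were at 2.99, 25.0, 6.00 and 3.01%, so embryo 2 stood apart.

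Slc38a1 differed between the tissues. In epiblast both copies were read about equally, with a maternal share of 46.2% ± 3.92 (SD, n = 7) in BDF1xCAST and 55.4% ± 2.23 (SD, n = 4) in CASTxBDF1. Its parental term was 0.05 (SE 0.08) and did not pass (edgeR adjusted p = 1), while a lean to the CAST allele did (BDF1 over CAST -0.27, edgeR adjusted p = 0.0075). In BDF1xCAST ExE the lowest share was 12.5%, the median 29.0% and the highest 40.9%. In CASTxBDF1 ExE embryos 1 to 4 had 23.8, 6.03, 33.2 and 28.2%. Every one of the 11 embryos had a lower share in ExE than in its own epiblast, although the ranges of the tissues overlapped in BDF1xCAST. The ExE parental term was -1.61 (SE 0.21, edgeR adjusted p = 8.79e-05). Per allele, BDF1xCAST ExE held 17.9 ± 9.65 CPM (SD, n = 7) of maternal and 47.4 ± 4.02 CPM of paternal Slc38a1 reads.

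**Figure D1:**
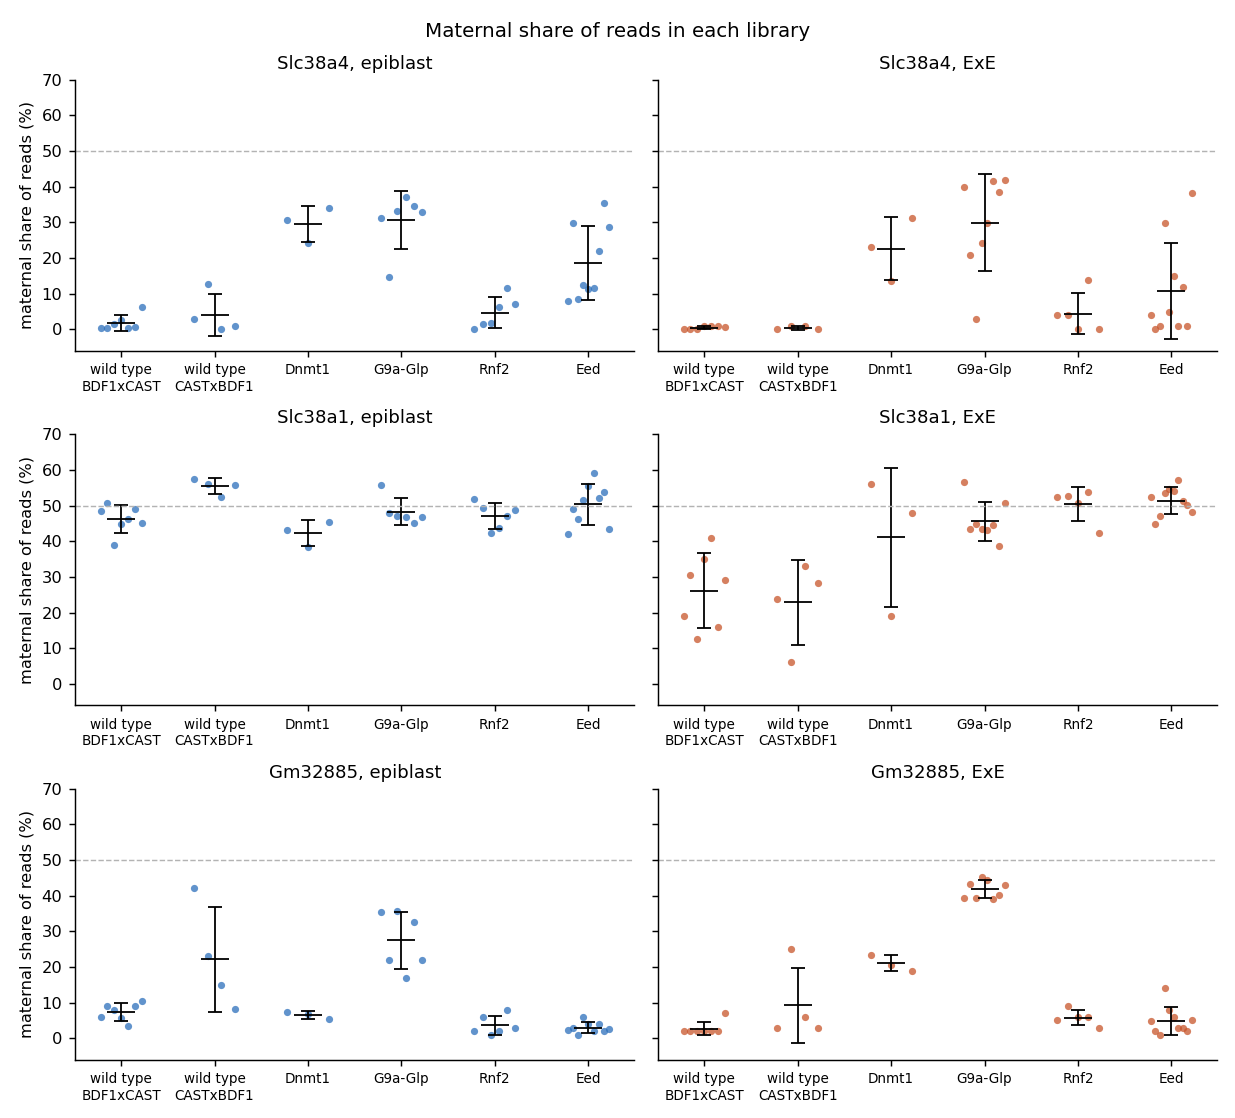
Maternal share of reads (%) in every library for the 3 genes, by tissue and group; points are libraries, bars the mean and SD, and the dashed line an equal share. Wild-type Slc38a4 stays near 0, Slc38a1 moves from near 50% in epiblast to 26.1% and 22.8% in wild-type ExE, and Gm32885 in G9a-Glp ExE sits between 39.2% and 45.3%.

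Between the tissues, wild-type ExE had more Slc38a4 and Gm32885 RNA than epiblast and less Slc38a1 RNA. Slc38a4 went from 121 ± 38.6 CPM (SD, n = 7; 74.0 to 181) in BDF1xCAST epiblast to 454 ± 61.2 CPM (n = 7; 383 to 546) in ExE, without overlap. Gm32885 went from 59.6 ± 23.5 CPM (28.7 to 85.5) to 2392 ± 659 CPM (1904 to 3841), again without overlap. Slc38a1 went from 163 ± 21.4 CPM to 65.3 ± 10.8 CPM. The log2 changes were 2.01, 5.44 and -1.22 (edgeR adjusted p = 1.61e-08, 6.04e-11 and 5.24e-07), so 3 of 3 genes passed where 56.5% of all genes did. In bulk tissue, fewer cells of a type and less RNA per cell cannot be told apart. By edgeR, 0 of the 3 genes passed for a difference in total level between the crosses in either tissue (2 of 3 in each had an unadjusted p under 0.05). DESeq2 called Gm32885 lower in CASTxBDF1 ExE (-0.78, adjusted p = 0.0468) and none in epiblast. This was a test that 0.0103% of genes passed in epiblast and 1.15% in ExE.

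The shift of the allelic ratio between the tissues passed for Slc38a1, 1 of the 3 genes, at -1.65 (SE 0.23, edgeR adjusted p = 6.48e-05), where 0.317% of genes passed. Slc38a4 had -2.41 (adjusted p = 0.3) and Gm32885 -1.61 (adjusted p = 0.493) in the same fit. Epiblast and ExE came from the same embryos, and with the embryo as a block Slc38a4 had -2.33 (edgeR adjusted p = 0.015) and Gm32885 -1.13 (edgeR adjusted p = 0.00954). Without CASTxBDF1 ExE embryo 2 the unblocked value of Gm32885 was -2.01 (edgeR adjusted p = 0.00183).

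No other gene nearby passed for a parental bias in wild-type embryos. Of the 43 genes of the table within 1 Mb of Slc38a4, 11 others in epiblast and 9 others in ExE had enough reads for the parental term, and 0 passed by edgeR at an adjusted p of 0.05, with 0 and 1 at an unadjusted p under 0.05. Slc38a2, the neighbour between Slc38a1 and Slc38a4, had a parental log2 ratio of -0.03 in epiblast (edgeR adjusted p = 1). It leaned to the BDF1 allele in both crosses instead.

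**Figure D2:**
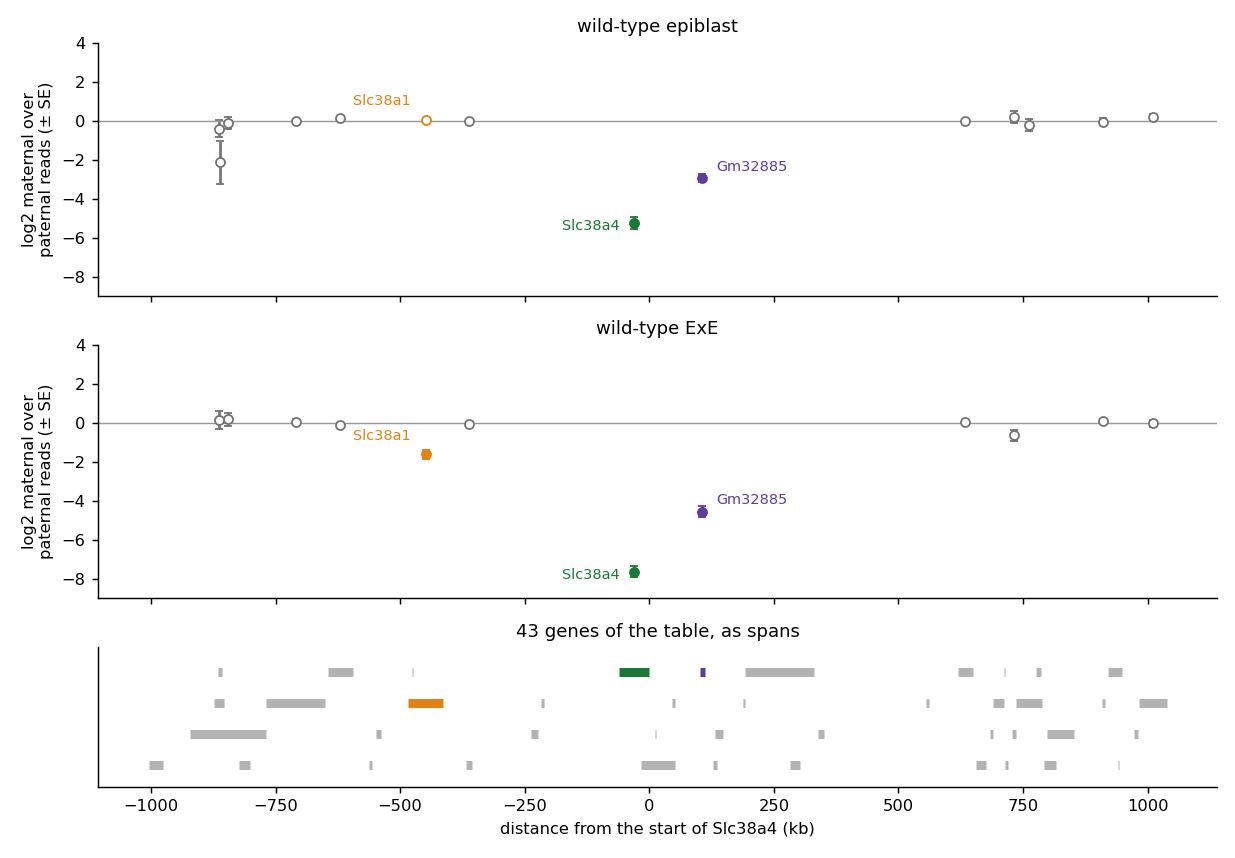
Maternal over paternal log2 ratio (± SE) of each tested gene in wild-type epiblast and ExE against distance from the Slc38a4 start (kb), above the spans of the 43 genes; filled points passed the test. Slc38a4 and Gm32885 lie below 0 in both tissues, Slc38a1 at -1.61 in ExE, and the other genes carry open points.

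The knockouts were compared with the wild type of their own cross, BDF1xCAST, and wild type has this meaning from here on unless the other cross is named. Wild-type CASTxBDF1 was in no knockout contrast, and for Gm32885 it lay apart, with shares up to 42.1% in epiblast and 25.0% in ExE and a level of 1276 to 1754 CPM in ExE.

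Dnmt1 knockout raised the maternal share of Slc38a4 in both tissues and that of Gm32885 in ExE. In epiblast the 3 libraries had maternal Slc38a4 shares of 30.6, 24.2 and 34.1%, all above the highest wild-type value. The log2 change of the allelic ratio was 4.70 (SE 0.44, edgeR adjusted p = 1.19e-06), and the maternal copy went from 2.48 ± 4.02 CPM (SD, n = 7) in wild type to 45.5 ± 6.93 CPM (n = 3), a log2 change of 4.30 (edgeR adjusted p = 0.000749). The paternal copy (-0.31, adjusted p = 0.488) and the total (0.16, adjusted p = 0.718) did not pass. Gm32885 stayed within the wild-type range at 7.5, 6.85 and 5.33% maternal, and Slc38a1 had 43.2, 38.4 and 45.5%. So 1 of the 3 genes passed in epiblast, where 0.908% of genes did. As levels, the maternal copy passed for 1 of 3 genes (12.2% of all genes), the paternal copy for 0 (11.4%) and the total for 0 (13.3%) by edgeR, each of the last 2 with 1 gene at an unadjusted p under 0.05. DESeq2 also called 0 of 3 totals.

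In Dnmt1 ExE the maternal share of Slc38a4 was 23.1, 13.5 and 31.3%, again without overlap with wild type, a log2 change of 5.84 (SE 0.41, edgeR adjusted p = 6.47e-08). Limma on log2 ratios gave 6.91 (limma adjusted p = 0.112). The Gm32885 share was 23.4, 20.7 and 19.0%, where the highest BDF1xCAST library had 7.00%, a change of 3.34 (SE 0.29, edgeR adjusted p = 4.01e-07). CASTxBDF1 embryo 2, at 25.0%, was above all 3 knockout libraries. Both of these genes passed, 2 of 3, where 0.856% of genes did. Slc38a1 had 56.2, 19.1 and 48.0%, 1 library inside the wild-type range and the others above it, and its change of 1.08 (95% interval 0.225 to 1.93) did not pass (edgeR adjusted p = 0.442).

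In Dnmt1 ExE the paternal copy fell for Gm32885, and for Slc38a4 it did not pass. For Slc38a4 the maternal copy rose from 2.31 to 147 CPM (log2 5.72, edgeR adjusted p = 0.000155) while the paternal copy had 452 CPM in wild type and 463 CPM in the knockout. For Gm32885 the paternal copy fell from 2316 ± 576 CPM to 1112 ± 53.1 CPM (log2 -1.31, edgeR adjusted p = 0.000924), and the total fell by 1.02 on the log2 scale (edgeR adjusted p = 0.00746), to a mean of 1409 CPM, beside 1437 CPM in wild-type CASTxBDF1. Without Dnmt1 ExE 3 the total change was -0.96 (edgeR adjusted p = 0.0567). The gain of the maternal Gm32885 copy, 75.3 to 298 CPM, passed narrowly (log2 1.70, edgeR adjusted p = 0.0486). It did not pass when any 1 of 9 libraries was left out, which were wild-type ExE 1, 2, 3, 4, 6 and 7 and all Dnmt1 ExE libraries (1.55 to 1.82, edgeR adjusted p = 0.0708 to 0.158), or with RLE scaling (1.66, edgeR adjusted p = 0.061). Of the 3 genes the total passed for 1 (18.2% of all genes), the maternal copy for 2 (16.1%) and the paternal copy for 1 (16.4%).

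In the G9a-Glp double knockout all 3 genes changed. Maternal Slc38a4 and Gm32885 reads rose in both tissues, maternal Slc38a1 reads rose in ExE, and Gm32885 RNA rose in epiblast, where it is scarce in wild type. The maternal Slc38a4 share in epiblast was 31.3, 14.6, 33.1, 37.2, 34.5 and 33.0% in embryos 1, 2, 3, 4, 5 and 7, all above wild type. It was lowest in embryo 2, 1 of the libraries with Ehmt1 mRNA not low. The change was 4.79 (SE 0.38, edgeR adjusted p = 4.74e-08). The Gm32885 share was 35.4, 22.1, 35.6, 17.0, 32.6 and 22.0%, all above the BDF1xCAST maximum of 10.4%, a change of 2.26 (SE 0.30, edgeR adjusted p = 6.65e-05). The CASTxBDF1 shares of 8.28 to 42.1% overlapped them. Slc38a1 had 48.3% ± 3.82 (SD, n = 6) and did not pass (0.11, edgeR adjusted p = 0.849), so 2 of 3 genes passed, against 1.78% of all genes.

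In G9a-Glp epiblast Gm32885 rose from 59.6 ± 23.5 CPM (SD, n = 7) to 2521 ± 869 CPM (n = 6; 1723 to 4042), every library far above wild type. This is 41.3-fold (log2 5.37, edgeR adjusted p = 5.4e-09), and both copies rose, the maternal one by 7.42 and the paternal one by 4.97 on the log2 scale (edgeR adjusted p = 9.4e-09 and 2.17e-10). Slc38a4 rose from 121 to 247 ± 19.7 CPM (210 to 263), also without overlap (log2 0.99, edgeR adjusted p = 0.000256). Its maternal copy went from 2.48 to 76.7 CPM (log2 5.26, edgeR adjusted p = 9.4e-07) and its paternal copy from 119 to 170 CPM. The paternal change passed narrowly (log2 0.47, edgeR adjusted p = 0.045) and was lost without any 1 of 10 libraries, wild-type epiblast 1 to 4 and all 6 of the knockout (0.39 to 0.50, adjusted p = 0.0587 to 0.112). It was also lost without both libraries whose Ehmt1 mRNA was not low (0.485, edgeR adjusted p = 0.11) and with RLE scaling (0.426, edgeR adjusted p = 0.0713). For total level, 2 of 3 genes passed, where 33.8% of genes did. For the maternal and for the paternal level it was also 2 of 3, against 24.7% and 25.0% of genes.

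In G9a-Glp ExE 7 of 8 libraries had a maternal Slc38a4 share between 20.8% and 41.9%, and embryo 3 had 3.01%. All 8 lay above wild type beyond the rounding. The change was 6.29 (SE 0.61, edgeR adjusted p = 1.7e-07), with limits of 5.47 and 6.96 from the rounding. The Gm32885 share held a narrow band of 39.2 to 45.3% with a median of 41.6%, far above the wild-type values, and embryo 3 was inside that band. Its change was 4.80 (SE 0.20, edgeR adjusted p = 2.58e-15). Slc38a1 had a lowest share of 38.6%, a median of 44.0% and a highest of 56.5%, and 7 of 8 libraries were above wild type (log2 1.26, SE 0.25, edgeR adjusted p = 0.00761). All 3 genes passed, where 1.1% of genes did. Limma on log2 ratios gave Slc38a1 1.34 (limma adjusted p = 0.0806).

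The level of Slc38a4 in G9a-Glp ExE was 942 ± 214 CPM (SD, n = 8; 660 to 1232), above wild type in 8 of 8 libraries (log2 0.99, edgeR adjusted p = 2.45e-05). Its maternal copy rose from 2.31 to 297 CPM (log2 6.91, edgeR adjusted p = 6.31e-07) and its paternal copy from 452 to 645 CPM (log2 0.45, edgeR adjusted p = 0.0183; without wild-type ExE 3, 0.41 with adjusted p = 0.0553). Slc38a1 rose by 0.50 (edgeR adjusted p = 0.0207; without wild-type ExE 3, 0.44 with adjusted p = 0.0508), and of its copies the maternal one passed (17.9 to 44.9 CPM; log2 1.26, edgeR adjusted p = 0.00751; paternal 0.07, adjusted p = 0.784). Gm32885 in total did not pass (log2 0.24, edgeR adjusted p = 0.427), although its maternal copy rose from 75.3 to 1233 CPM (log2 3.93, edgeR adjusted p = 7.11e-06). Its paternal copy had 2316 CPM in wild type and 1717 CPM here (log2 -0.49, edgeR adjusted p = 0.0983; without G9a-Glp ExE 9, -0.68 with adjusted p = 0.00354). Of total levels 2 of 3 passed, where 14.9% of genes did, of maternal levels 3 of 3 (8.75%) and of paternal levels 1 of 3 (8.88%).

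**Figure D3:**
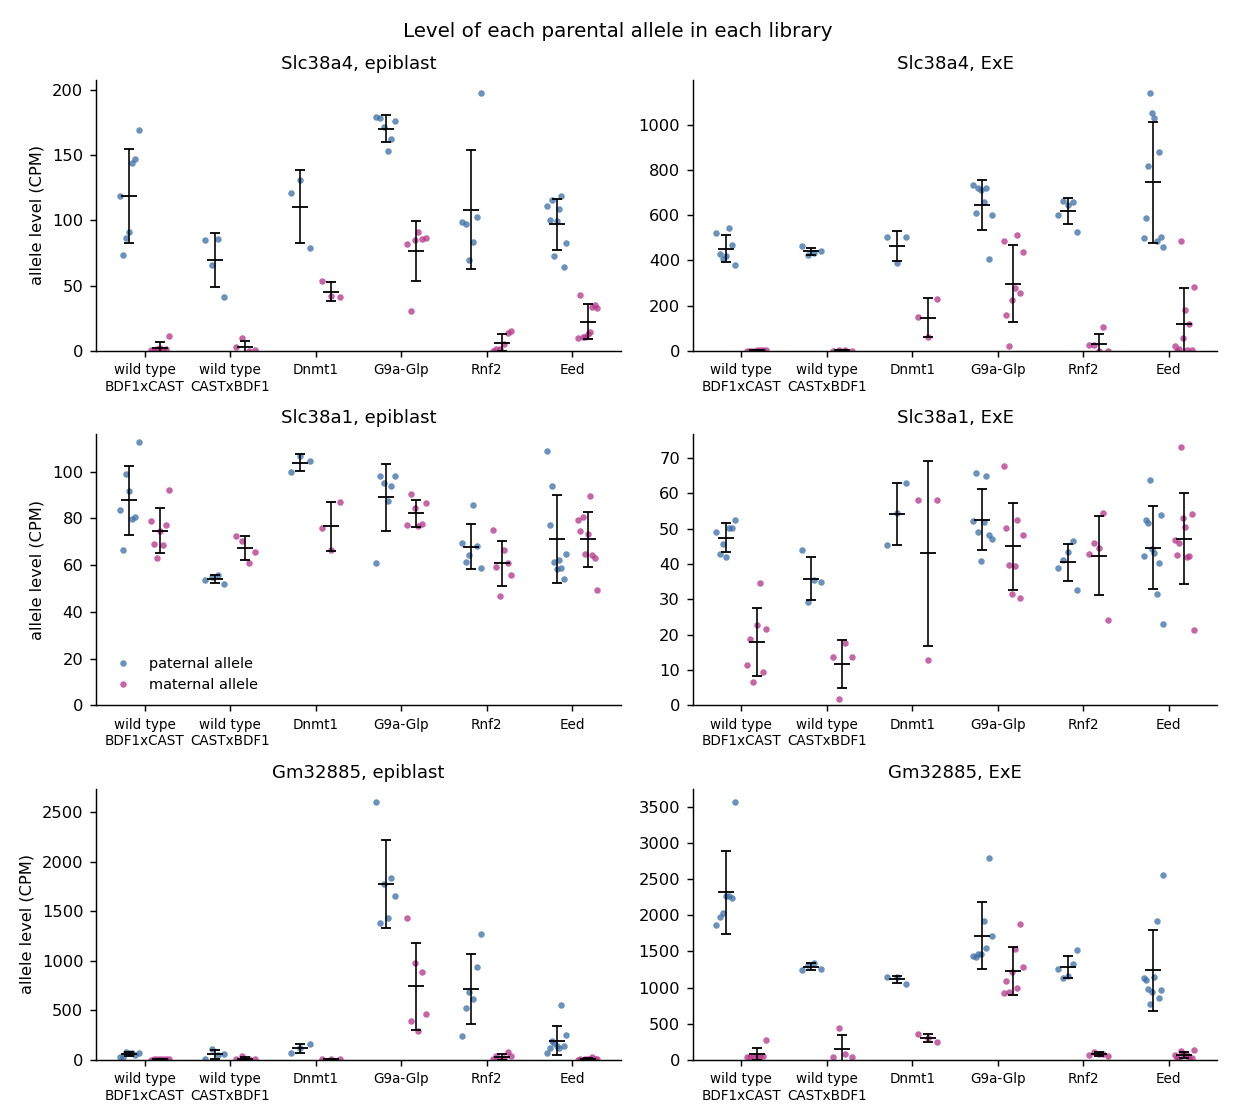
Level of each parental copy (CPM) in every library for the 3 genes, by tissue and group; blue points are paternal, pink maternal, bars the mean and SD, cut at 0. In G9a-Glp epiblast both copies of Gm32885 lie above all wild-type libraries, and in ExE of the 4 knockouts the paternal copy of Slc38a1 has means of 40.5 to 54.2 CPM beside 47.4 CPM in wild type.

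Rnf2 knockout changed the RNA level of Gm32885 in opposite directions in the 2 tissues. The allelic ratio of Slc38a1 rose in ExE. In epiblast Gm32885 rose from 59.6 ± 23.5 CPM (SD, n = 7) to 743 ± 373 CPM (n = 6; 244 to 1311), all 6 libraries above wild type (13-fold, log2 3.70, edgeR adjusted p = 2.7e-06). Its ExE level was lower than in wild type, falling from 2392 ± 659 CPM to 1358 ± 137 CPM (n = 5), with all 5 libraries below the lowest BDF1xCAST library (log2 -0.91, edgeR adjusted p = 0.00276). Wild-type CASTxBDF1 ExE had 1437 CPM (1276 to 1754). Without the 3 ExE libraries whose Rnf2 mRNA was not low, the ExE value was -0.84 (edgeR adjusted p = 0.118) in total and -0.872 (edgeR adjusted p = 0.097) for the paternal copy. In epiblast the rise was carried by the paternal copy (55.2 to 713 CPM; log2 3.74, edgeR adjusted p = 6.45e-07) and, at a much lower level, by the maternal one (4.36 to 29.8 CPM; log2 2.85, edgeR adjusted p = 0.00252). Total level passed for 1 of 3 genes in epiblast (28.2% of genes) and for 2 of 3 in ExE (22.6% of genes). The maternal level passed for 1 of 3 in epiblast (18.7%) and 2 of 3 in ExE (14.0%), and the paternal level for 1 of 3 (19.7%) and 2 of 3 (16.5%).

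The maternal Slc38a4 share in Rnf2 epiblast was 0, 1.46, 1.73, 6.23, 11.6 and 7.07% in embryos 1, 2, 3, 5, 6 and 8. Embryos 6 and 8 were above BDF1xCAST wild type, though below CASTxBDF1 embryo 2 at 12.7%, embryos 2, 3 and 5 inside the BDF1xCAST range, and embryo 1 not below it beyond the rounding. The change of 1.29 (95% interval -0.462 to 3.04) did not pass (edgeR adjusted p = 0.758). In ExE embryos 2, 4 and 6 had 4.00, 4.00 and 13.99%, above wild type beyond the rounding, and embryos 5 and 7 were at the lowest deposited ratio (below 0.5%). The ExE change was 2.93 (SE 0.97, edgeR adjusted p = 0.211), and 3.40 (edgeR adjusted p = 0.0293) without Rnf2 ExE 7. Neither allelic value is a change by the test, and neither shows that the maternal copy stayed as in wild type. As a level, the maternal copy in ExE rose from 2.31 to 31.9 CPM (log2 3.70, edgeR adjusted p = 0.0256), and this was lost without Rnf2 ExE 6 (2.52, edgeR adjusted p = 0.129) and with the 2 libraries of low Rnf2 mRNA alone (2.52, edgeR adjusted p = 0.28).

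Slc38a1 was the gene whose allelic ratio passed in Rnf2 ExE. Its maternal share was 52.4, 52.8, 50.6, 53.9 and 42.3% in embryos 2, 4, 5, 6 and 7, all above the highest wild-type value of 40.9%. The change was 1.53 (SE 0.28, edgeR adjusted p = 0.00747), and the maternal copy rose from 17.9 to 42.3 CPM (log2 1.16, edgeR adjusted p = 0.0258). The paternal copy had 47.4 and 40.5 CPM (log2 -0.31, 95% interval -0.596 to -0.0284, edgeR adjusted p = 0.148). Left with the 2 libraries of low Rnf2 mRNA, the ratio changed by 1.37 (edgeR adjusted p = 0.273), and limma gave 1.61 (limma adjusted p = 0.111). The maternal rise was not called without Rnf2 ExE 2, 4 or 6 (1.07 to 1.15, edgeR adjusted p = 0.0536 to 0.0698), nor with those 2 libraries alone (0.919, edgeR adjusted p = 0.341). So 1 of 3 genes passed in ExE, where 0.922% of genes did. In epiblast 0 of 3 passed by edgeR or limma, 1 of them with an unadjusted p under 0.05, where 0.696% of genes did. Gm32885 in ExE had 5.00, 9.00, 5.99, 6.00 and 3.00% and a change of 1.18 (edgeR adjusted p = 0.0837). That value passed without wild-type ExE 8 (1.52, edgeR adjusted p = 0.000457) or without Rnf2 ExE 7 (1.41, edgeR adjusted p = 0.0221). The maternal Gm32885 level, -0.10 with all libraries (adjusted p = 0.914), was 0.82 (edgeR adjusted p = 0.0114) without wild-type ExE 8.

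Total Slc38a4 in Rnf2 ExE was 650 ± 87.5 CPM (SD, n = 5), above wild type in 4 of 5 libraries, and rose by 0.44 on the log2 scale (edgeR adjusted p = 0.014). With the 2 libraries of low Rnf2 mRNA alone, it was 0.37 (edgeR adjusted p = 0.227). The paternal copy rose from 452 to 618 CPM (log2 0.38, edgeR adjusted p = 0.0318), which was lost without wild-type ExE 2, 3 or 4 or Rnf2 ExE 2, 4 or 6 (0.34 to 0.39, edgeR adjusted p = 0.0562 to 0.0857) and with those 2 alone (0.346, edgeR adjusted p = 0.302). Total Slc38a1 in Rnf2 epiblast (log2 -0.30, edgeR adjusted p = 0.0846) passed without wild-type epiblast 8 (-0.32, edgeR adjusted p = 0.0319) and by DESeq2 (-0.37, adjusted p = 0.00207). Markers of the ectoplacental cone and of trophoblast giant cells, cells that differentiate out of ExE, were summed in each ExE group. The sum of 5 markers had a median of 436 CPM in wild-type BDF1xCAST (16.8 to 1240) and 195 CPM in Dnmt1 (171 to 755). The median was 636 CPM in G9a-Glp (14.5 to 2471), 1235 CPM in Rnf2 (313 to 2344) and 3180 CPM in Eed (460 to 5702). The part of these cells in the levels was not tested. Prl3d1 was at 0 in each of these groups. Gcm1 was at 0 in every Dnmt1 and Eed ExE library, but not in every wild-type BDF1xCAST library.

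Eed knockout raised the maternal share of Slc38a4 in epiblast, raised that of Slc38a1 in ExE, and moved Gm32885 RNA up in epiblast and down in ExE. The maternal Slc38a4 share in epiblast had a lowest value of 7.92%, a median of 12.4% and a highest of 35.4%, and all 9 libraries were above BDF1xCAST wild type. CASTxBDF1 embryo 2, at 12.7%, was above 5 of the 9. The change was 3.76 (SE 0.49, edgeR adjusted p = 3.43e-05). The maternal copy went from 2.48 to 22.5 CPM (log2 3.38, edgeR adjusted p = 0.00016), with 119 and 97.1 CPM for the paternal one (log2 -0.42, edgeR adjusted p = 0.0744). That paternal value passed without wild-type epiblast 2 or without Eed epiblast 8 (-0.51 to -0.47, edgeR adjusted p = 0.027 to 0.0454).

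In Eed ExE the maternal Slc38a4 shares fell into a wide range. Libraries 4 and 10 had 29.8 and 38.2%, libraries 6 and 8 had 15.0 and 12.01%, and libraries 1 and 5 had 4.00 and 5.00%. Libraries 2, 3, 7 and 9 had 0 to 1.02%, which the rounding does not set apart from wild type. The change was 4.05 (SE 1.03, edgeR adjusted p = 0.0263). It was lost without wild-type ExE 1, 2, 3 or 8 or Eed ExE 6 (3.78 to 4.08, edgeR adjusted p = 0.0505 to 0.0591), by limma (4.04, limma adjusted p = 0.179) and with a robust variance estimate (4.05, edgeR adjusted p = 0.166). The maternal level passed, 2.31 to 116 CPM (log2 5.49, edgeR adjusted p = 0.00112).

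Slc38a1 in Eed ExE was read about equally from both copies, from 44.8% over a median of 51.8% to 57.2% maternal, and 10 of 10 libraries were above the wild-type maximum of 40.9%. The change was 1.58 (SE 0.22, edgeR adjusted p = 4.79e-05). The maternal copy rose from 17.9 to 47.2 CPM (log2 1.20, edgeR adjusted p = 0.00149) and the paternal copy had 47.4 and 44.6 CPM (log2 -0.30, edgeR adjusted p = 0.116). In ExE 2 of 3 genes passed for the allelic ratio, where 2.65% of genes did. The total level of Slc38a1 in Eed ExE did not pass (log2 0.28, edgeR adjusted p = 0.124), but did without Eed ExE 10 (0.34, edgeR adjusted p = 0.0365).

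In Eed epiblast, 2 of 3 genes passed for the allelic ratio (1.05% of genes), Slc38a4 upwards and Gm32885 downwards. Gm32885 had a maternal share of 0.913 to 6.03% with a median of 2.67%, and 6 of 9 libraries were below the lowest wild type. The change of -1.27 (SE 0.30, edgeR adjusted p = 0.0292) was lost without wild-type epiblast 2, 3, 7 or 8 or Eed epiblast 6, 9 or 10 (-1.23 to -1.16, edgeR adjusted p = 0.0539 to 0.0927) and by limma (-1.42, limma adjusted p = 0.09). Fitting all groups together gave -1.24 (edgeR adjusted p = 0.462). The level behind it rose on the paternal copy, from 55.2 to 193 CPM (log2 1.70, edgeR adjusted p = 0.000902), with 4.36 and 6.56 CPM for the maternal copy (log2 0.56, edgeR adjusted p = 0.464).

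In total, Gm32885 rose 3.12-fold in Eed epiblast (67.1 to 579 CPM, 8 of 9 libraries above wild type; log2 1.64, edgeR adjusted p = 0.00197) and fell by 1.02 in ExE (881 to 2689 CPM, 8 of 10 below wild type, edgeR adjusted p = 0.00429; mean 1297 CPM, beside 1437 CPM in wild-type CASTxBDF1). Slc38a4 rose in Eed ExE to 860 ± 374 CPM (SD, n = 10; 488 to 1623), above wild type in 7 of 10 libraries (log2 0.74, edgeR adjusted p = 0.00834). Its paternal copy there rose from 452 to 744 CPM (log2 0.53, edgeR adjusted p = 0.0296). This was lost without wild-type ExE 2, 3 or 4 or Eed ExE 4, 5, 6 or 8 (0.46 to 0.52, edgeR adjusted p = 0.0509 to 0.0614). Slc38a1 fell by 0.34 in Eed epiblast (163 to 142 CPM, edgeR adjusted p = 0.0341), where wild-type CASTxBDF1 had 121 CPM. This was lost without wild-type epiblast 1, 3, 4 or 7 or Eed epiblast 4, 5, 8, 9 or 10 (-0.35 to -0.30, edgeR adjusted p = 0.0505 to 0.0635), and with no filter on low counts (-0.34, edgeR adjusted p = 0.118). The paternal Slc38a1 copy there fell by 0.45 (edgeR adjusted p = 0.0319), lost without wild-type epiblast 1, 3 or 4 or Eed epiblast 4, 5, 6, 9 or 10 (-0.46 to -0.41, edgeR adjusted p = 0.0516 to 0.0744). Total level passed for 2 of 3 genes in each tissue, where 34.8% of genes passed in epiblast and 41.0% in ExE. The maternal level passed for 1 of 3 in epiblast (25.5%) and 2 of 3 in ExE (28.9%), and the paternal level for 2 of 3 in each (24.7% and 29.5%). The 8 ExE markers summed to 365 to 683 CPM in Eed ExE and 653 to 1224 CPM in wild type, and their part in these levels was not tested.

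**Figure D4:**
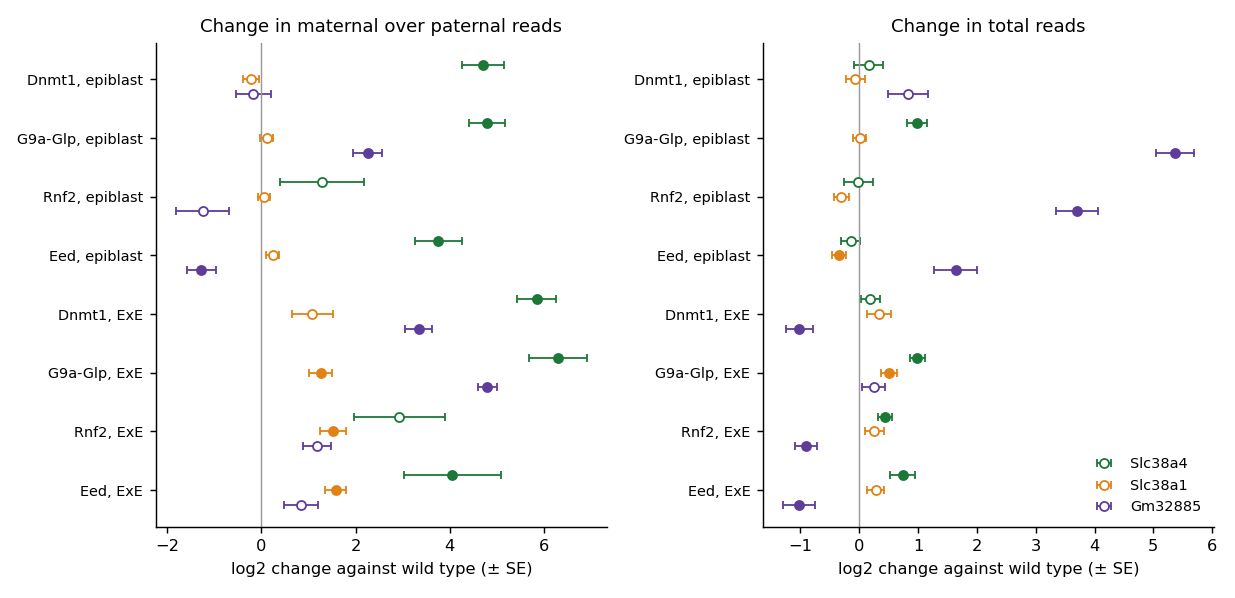
Log2 change against wild-type BDF1xCAST (± SE) for the 3 genes in each knockout and tissue, left for maternal over paternal reads and right for total reads; filled points passed. Slc38a4 carries filled points at 4.70, 4.79 and 3.76 in epiblast for Dnmt1, G9a-Glp and Eed, Slc38a1 is filled on the left only in ExE, and Gm32885 total reads reach 5.37 in G9a-Glp epiblast and fall below 0 in ExE of Dnmt1, Rnf2 and Eed.

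The knockouts were also compared with each other, in 6 pairs per tissue, without wild type in the contrast. For Slc38a4 in epiblast the allelic ratio was lower in Rnf2 than in Dnmt1 (3.39, edgeR adjusted p = 0.00469), than in G9a-Glp (3.47, adjusted p = 9.91e-05) and than in Eed (-2.45 for Rnf2 over Eed, adjusted p = 0.0203). In ExE the pair G9a-Glp over Rnf2 passed (3.41, edgeR adjusted p = 0.0181), and G9a-Glp over Eed, at 2.23, did not (adjusted p = 0.0563). By limma on log2 ratios, Dnmt1 over Rnf2 (4.43, limma adjusted p = 0.0713) and Rnf2 over Eed (-3.37, limma adjusted p = 0.133) in epiblast and G9a-Glp over Rnf2 in ExE (5.66, limma adjusted p = 0.111) did not pass. The pair of Dnmt1 and G9a-Glp passed in neither tissue. Of all genes, 0.322, 0.575 and 0.308% passed in epiblast for Dnmt1 against G9a-Glp, Rnf2 and Eed, 0.589 and 0.294% for G9a-Glp against Rnf2 and Eed, and 0.126% for Rnf2 against Eed. In ExE the shares in the same order were 0.208, 0.104, 0.638, 1.08, 2.7 and 0.313%.

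For Gm32885 in ExE, G9a-Glp and Dnmt1 were each set apart from Rnf2 and Eed. G9a-Glp was above Rnf2 (3.61, edgeR adjusted p = 1.03e-09) and above Eed (3.97, adjusted p = 1.88e-12), and Dnmt1 was above Rnf2 (2.18, adjusted p = 0.013) and above Eed (2.53, adjusted p = 0.000184). Limma did not call Dnmt1 over Rnf2 (2.19, limma adjusted p = 0.111). Dnmt1 over G9a-Glp (-1.43, edgeR adjusted p = 0.152) and Rnf2 over Eed (0.35, edgeR adjusted p = 0.932) did not pass in ExE. In epiblast G9a-Glp was above Rnf2 (3.47, edgeR adjusted p = 3.49e-10) and Eed (3.50, adjusted p = 5.3e-08), while Dnmt1 over G9a-Glp, at -2.43, did not pass (adjusted p = 0.068) but did by limma (-2.34, limma adjusted p = 0.0328). No pair passed for Slc38a1 in either tissue.

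Slc38a4 and Gm32885 did not always move together within a library. In Dnmt1 epiblast the maternal Slc38a4 share was 24.2% or more in each library while that of Gm32885 stayed at 7.5% or less. In Eed epiblast libraries 2, 9 and 10 had 29.9, 35.4 and 28.6% maternal Slc38a4 and 2.89, 2.19 and 2.67% maternal Gm32885. In G9a-Glp ExE 3 the order was the reverse, with 3.01% for Slc38a4 and 39.25% for Gm32885. In Dnmt1 ExE both shares were raised in all 3 libraries.

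**Figure D5:**
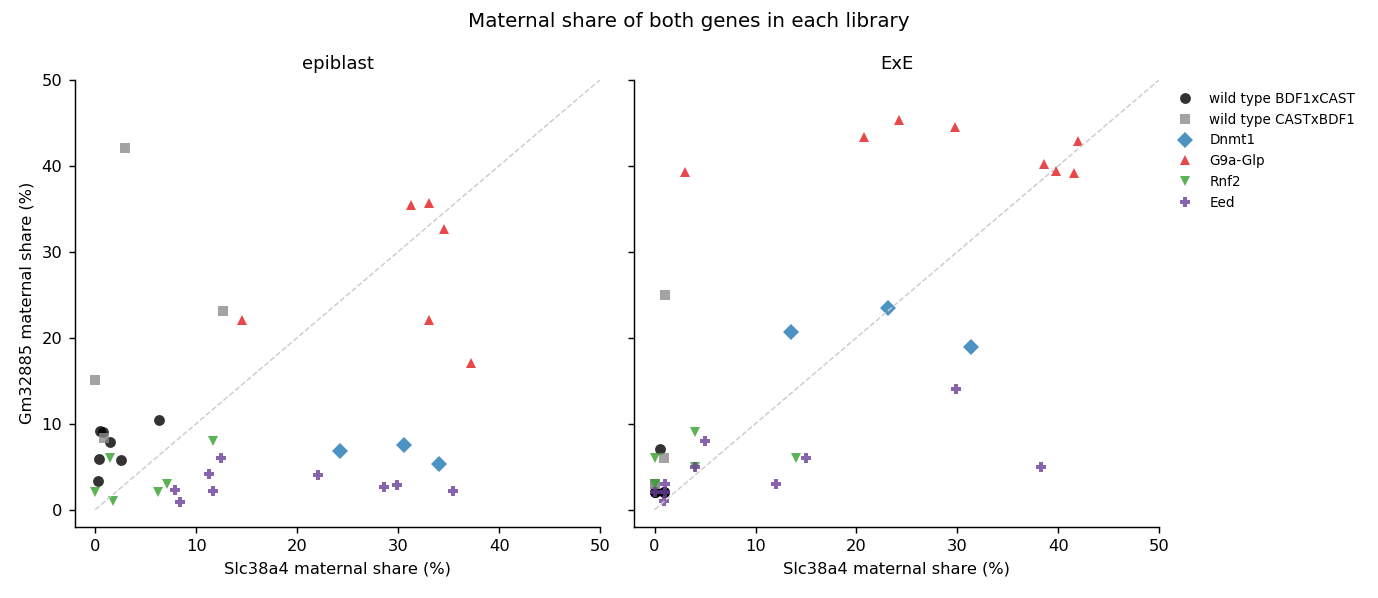
Maternal share (%) of Slc38a4 on the horizontal and of Gm32885 on the vertical axis in each epiblast (left) and ExE (right) library, by group; the dashed line marks equal shares. Dnmt1 and Eed epiblast libraries lie to the right along the bottom, and G9a-Glp libraries lie high, with 1 ExE library at 3.01% on the horizontal axis.

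Whether a knockout acted differently in the tissues was tested as the change in ExE minus the change in epiblast. That fit did not pair the tissues of an embryo. For Gm32885 this difference was 2.54 in G9a-Glp (edgeR adjusted p = 0.0125; 0.311% of genes passed). For Slc38a1 it was 1.48 in Rnf2 (adjusted p = 0.0305; 0.274% of genes) and 1.33 in Eed (adjusted p = 0.00435; 0.852% of genes). For Slc38a4 it did not pass in any of the 4 knockouts, with values from 0.22 to 1.48 (adjusted p = 0.852 to 0.994). For Gm32885 in Dnmt1 it was 3.53 (edgeR adjusted p = 0.0631), in a comparison that 0 of 6405 genes passed by edgeR, the tool used, with 333 at an unadjusted p under 0.05.

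Ordered by mean maternal share, Slc38a4 in epiblast ran from wild-type BDF1xCAST (1.74%) over wild-type CASTxBDF1 (4.13%), Rnf2 (4.68%), Eed (18.6%) and Dnmt1 (29.6%) to G9a-Glp (30.6%). The step from Rnf2 to Eed, 13.9 percentage points, passed as a difference of means (exact two-sided permutation test, p = 0.002398, adjusted p = 0.02398 over 10 steps). Their libraries overlapped, with 0 to 11.6% in Rnf2 and 7.92 to 35.4% in Eed. The pairs tested were neighbours in an order set by these same means. In ExE the order was wild-type CASTxBDF1 (0.494%), wild-type BDF1xCAST (0.498%), Rnf2 (4.40%), Eed (10.7%), Dnmt1 (22.7%) and G9a-Glp (29.9%), and none of its 5 steps passed. By level, Gm32885 in epiblast stepped up from Eed (200 CPM) to Rnf2 (743 CPM) and from Rnf2 to G9a-Glp (2521 CPM). Each difference of means passed (exact permutation test, adjusted p = 0.01082). Eed (67.1 to 579 CPM) and Rnf2 (244 to 1311 CPM) overlapped, while Rnf2 and G9a-Glp (1723 to 4042 CPM) did not. In ExE the step that passed was from wild-type CASTxBDF1 (1437 CPM) to wild-type BDF1xCAST (2392 CPM, exact permutation test, adjusted p = 0.0202). By edgeR the same 2 groups did not differ (log2 -0.77 for CASTxBDF1 over BDF1xCAST, edgeR adjusted p = 0.131). The other steps did not pass, which says little where a group has 3 libraries: from Dnmt1 (120 to 175 CPM) to G9a-Glp epiblast (210 to 263 CPM) Slc38a4 did not overlap, and the exact permutation test gave p = 0.02381 (adjusted p = 0.2381).

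Of the other genes within 1 Mb, 9 to 12 were tested for the allelic ratio in each knockout comparison, and 0 passed by edgeR, with 0 to 2 at an unadjusted p under 0.05. Slc38a2 kept a maternal share of 60 to 69% as group means in all BDF1xCAST groups, wild type and knockout. Its total fell by 0.52 in Rnf2 ExE and by 0.54 in Eed ExE (edgeR adjusted p = 0.0156 and 0.00476).

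Slc38a4 was set beside 4 other genes listed as noncanonical imprinted genes: Sfmbt2 (a Polycomb group protein), Gab1 (a signalling adaptor), Jade1 (part of a histone acetylation complex) and Smoc1 (a matrix protein). All 5 of this list passed for paternal expression in wild-type ExE, with a median log2 ratio of -6.25 against 0.01 over all genes. In epiblast Slc38a4 was the only 1 of the 4 tested that passed. The maternal over paternal ratio passed, each time upwards, for 5 of 5 in G9a-Glp ExE (1.1% of all genes), 5 of 5 in Eed ExE (2.65%), 3 of 5 in Dnmt1 ExE (0.856%) and 2 of 5 in Rnf2 ExE (0.922%). The Eed count includes Slc38a4, whose call was lost in several alternatives given above. Their medians were 5.51, 4.05, 2.07 and 2.93, and the medians of all genes were within 0.01 of 0. In Dnmt1 ExE Slc38a4 at 5.84 and Sfmbt2 at 5.35 stood above Gab1 (1.05), Jade1 (2.07) and Smoc1 (1.48). In epiblast, Slc38a4 was the gene of the list that passed in Dnmt1 (1 of 4 tested), G9a-Glp (1 of 5) and Eed (1 of 5), where 0.908, 1.78 and 1.05% of genes did. These genes share the wild-type and knockout libraries, so their values are given side by side.

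The same was counted for canonical paternally expressed genes, whose imprint comes from DNA methylation laid down in the egg or the sperm, such as Peg3, Mest and Sgce. All calls were upwards. In Dnmt1 their maternal over paternal ratio passed for 9 of 9 tested in epiblast (0.908% of all genes) and 7 of 8 in ExE (0.856%), with medians of 4.93 and 6.25. Peg3 (6.19), Mest (4.66) and Sgce (6.35) were among the 7, and Slc38a4 had 5.84 in the same comparison. In G9a-Glp 1 of 9 passed in each tissue (1.78% and 1.1% of all genes), with medians of 0.15 and 0.85. In Rnf2 it was 2 of 9 in each tissue (0.696% and 0.922%), with medians of 1.33 and 3.32. In Eed it was 2 of 9 in epiblast (1.05%) and 4 of 9 in ExE (2.65%), with medians of 0.95 and 2.34. The difference between this list and the noncanonical genes was not tested.

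Among the SLC38 transporter family, 11 genes are in the table. In total level, the genes that passed in either direction were 0 of 8 tested in Dnmt1 epiblast (13.3% of all genes) and 1 of 7 in Dnmt1 ExE (18.2%), 2 of 7 and 3 of 7 in G9a-Glp epiblast and ExE (33.8% and 14.9%), 3 of 8 and 3 of 7 in Rnf2 (28.2% and 22.6%), and 3 of 8 and 6 of 9 in Eed (34.8% and 41.0%). These counts, over 7 to 9 genes, do not set the family apart from all genes. Family members that fell were Slc38a1 in Eed epiblast and Slc38a2 in Rnf2 and Eed ExE. Slc38a7, a transporter of the lysosome, passed in all comparisons except Dnmt1 epiblast, at 1.42, 1.25 and 1.65 in G9a-Glp, Rnf2 and Eed epiblast, and 0.94, 0.90, 0.68 and 0.68 in Dnmt1, G9a-Glp, Rnf2 and Eed ExE. The median of the family in Eed ExE was 0.68, against 0.00 over all genes tested. Of other amino acid transporters, those that passed in epiblast were 0 of 13 in Dnmt1 and 2 of 13, 2 of 14 and 2 of 14 in G9a-Glp, Rnf2 and Eed, all of the latter upwards. In ExE they were 1 of 13 in Dnmt1 (downwards), 4 of 13 in G9a-Glp (2 upwards), 5 of 13 in Rnf2 (4 upwards) and 8 of 14 in Eed (6 upwards), beside the same shares of all genes.

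The genes whose pattern was most like that of Slc38a4 were chosen by correlation. Over the 12 group means of the maternal share, Tdp2 (0.90), Polr1d (0.89) and Tbc1d5 (0.86) came first of 6332 genes, and Gm32885 had 0.58 and Slc38a1 0.26. The correlation takes no account of the size of a share. Tdp2 (49.9 to 56.7% maternal), Polr1d (48.8 to 55.8%) and Tbc1d5 (46.6 to 62.2%) stayed around an equal share. Slc38a4 ran from 0.494 to 30.6%. Over total level in 72 libraries, 3830417A13Rik (0.93), Krt19 (0.91) and Gab1 (0.91) came first of 9667 genes, with 0.75 for Gm32885 and -0.53 for Slc38a1. For the level of Gm32885 the first was Ccl9 (0.89), and for that of Slc38a1 Raph1 (0.87). These points share tissue and library, so the values only describe the pattern.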

How the data were processed

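Bulk RNA-seq of 72 libraries was analysed from the authors' deposited table, which holds, for each gene and library, a read count over polymorphisms that tell BDF1 from CAST, an allelic ratio as a fraction rounded to 0.01, and a signed score. The score matched the −log10 p-value of a binomial test of the deposited reads. The submitters' processing notes name STAR 2.5.0, HTSeq and mm10; whether strand was used in counting, and how SNPs were masked, is not given in the sources used here. Gene symbols and deposited gene spans were used as given. One bisulfite library was not analysed here.

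Counts per allele were recovered from reads, ratio and score together: of 712320 scored values below the score limit, 712271 (99.99312%) matched a whole read number within a tolerance of 0.001 in the score. Another 3329 values at the limit were set to the middle of the rounded ratio. Both ends of the rounding were run as alternatives for the knockout ratios against wild type and the wild-type parental term. CPM is reads scaled to 1000000 reads over polymorphisms in a library. The allelic ratio was tested with edgeR 4.0.16 (quasi-likelihood, 1 column per library and allele, library as a term) on autosomal genes with 10 reads in 3 libraries of each group. Total level was tested with TMM scaling and edgeR's expression filter, and the level of 1 allele with the library's total scaling. P-values were adjusted over all genes (Benjamini-Hochberg, 0.05). Wild-type parental and strain terms used both crosses, and knockouts were compared with BDF1xCAST wild type alone. Within a group of 1 tissue the libraries are separate embryos. Epiblast and ExE libraries can come from the same embryo, which the main tests between tissues did not model. The tests were tested on data simulated for G9a-Glp against wild type ExE. A total change of log2 1 was called for 95.9% of 97 genes and of log2 2 for 100% of 92 (9292 genes run), and an allelic change for 54% and 89% of 100 genes each (8731 genes run). Unchanged genes were called 13 times for total level and 6 times for the allelic ratio. The simulation gave every gene the same spread and kept maternal shares away from 0, where wild-type Slc38a4 lies. These rates therefore need not hold for the 3 genes.

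Same-embryo epiblast and ExE libraries pair by the labels, and their deviations from group means correlated at 0.0238 to 0.414 in BDF1xCAST and 0.037 to 0.33 in CASTxBDF1. Eed titles and embryo labels disagree between the tissues for numbers 7 to 10, so Eed libraries are named by title and not paired. No library pair of a group agreed within counting noise (lowest chi-square per degree of freedom 3.25). Slc38a4 overlaps Gm32840 (243 reads in all libraries) and Slc38a1 overlaps Gm32457 (3 reads). Alternatives were limma 3.58.1 (0.5 added to each allele's reads), DESeq2 1.42.0, RLE scaling, read minimums of 1 and 50, no filter, all groups in 1 fit, the replicate number as a block, and leaving out each library. A robust variance estimate, both ends of the rounding and leaving out the 6 libraries whose targeted mRNA was not low were chosen after seeing the data. Gene names always given are the 3 genes; neighbours within 1 Mb are named where a parental, tissue or knockout test passed, and lists by their fixed members; Slc38a2 lies between the genes and is named throughout. The genes, lists and markers were chosen with earlier results of these data known. R 4.3.3 and Python 3.11.15 were used.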

Additional observations from a re-analysis of the deposited data

Results flagged for a closer look

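In 11 of 60 groups of 4 to 10 libraries, 1 library stood far from the others by Dixon's test. For independent, normally distributed values, chance alone does this in about 1 group in 20. That rate need not hold here, because shares are bounded and many come from rounded ratios. Share and level of the same libraries were also counted as separate groups. The count therefore does not show an excess over chance. For the maternal share of Slc38a4 these were wild-type BDF1xCAST epiblast 8 (highest, 6.329%), G9a-Glp epiblast 2 (lowest, 14.58%) and Rnf2 ExE 6 (highest, 13.99%). G9a-Glp epiblast 2 also had the lowest Slc38a4 level of its group (209.5 CPM), and both it and Rnf2 ExE 6 are among the libraries in which the targeted mRNA was not low. Rnf2 epiblast 8 had the highest Slc38a4 level of its group (213.1 CPM). For Slc38a1, the share of G9a-Glp epiblast 1 was the highest of its group (55.86%) and that of Rnf2 ExE 7 the lowest (42.32%). For Gm32885, wild-type CASTxBDF1 ExE 2 had the highest share of its group (25%), and wild-type BDF1xCAST ExE 8 had both the highest share (6.996%) and the highest level (3841 CPM). Eed epiblast 8 had the highest Gm32885 level of its group (579.3 CPM).

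A test of the difference itself found the change of the allelic ratio unequal in the tissues (ExE minus epiblast, log2) for Gm32885 in G9a-Glp (2.54), for Slc38a1 in Rnf2 (1.48) and for Slc38a1 in Eed (1.33).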

How the results depend on the processing

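A read minimum of 50, run for the allelic tests, changed no call of the 3 genes. The fewest or the most maternal reads that the rounded ratios allow changed none either. They were run only for the knockout ratios against wild type and the wild-type parental term. The levels of single alleles and the other allelic tests were not rerun with them. The replicate number as a block changed 7 calls of ratios and totals and 7 of single alleles' levels. In the knockout comparisons the numbers are only names: in no comparison did all same-numbered libraries correlate above 0.1, and libraries correlated best with their own number in 0 to 2 pairs per comparison. With the block, total Gm32885 in Dnmt1 epiblast was 1.19 and the Gm32885 ratio in Rnf2 ExE 1.49 (both gained). The Gm32885 ratio in Eed epiblast was -1.30, total Slc38a1 in Eed epiblast -0.245 and total Slc38a4 in Rnf2 ExE 0.401 (all lost). Between wild-type tissues, where the block is the embryo, Slc38a4 was -2.33 and Gm32885 -1.13 (both gained). Of the alleles' levels, paternal Gm32885 in Dnmt1 epiblast (1.20) and G9a-Glp ExE (-0.675) were gained, and lost were maternal Gm32885 in Rnf2 epiblast (2.63), paternal Slc38a1 in Eed epiblast (-0.369) and, in Rnf2 ExE, maternal Slc38a1 (0.964), maternal Slc38a4 (2.67) and paternal Slc38a4 (0.327). Total Slc38a1 in Rnf2 epiblast was gained with DESeq2 (-0.37) and RLE scaling (-0.373). Limma on log2 ratios lost Gm32885 in Eed epiblast (-1.42) and, in ExE, Slc38a4 in Dnmt1 (6.91) and Eed (4.04) and Slc38a1 in G9a-Glp (1.34) and Rnf2 (1.61). Between knockouts it lost 4 calls, 3 of Slc38a4 and 1 of Gm32885, and gained 1 of Gm32885, and DESeq2 gained total Gm32885 between the crosses in ExE. RLE scaling lost paternal Slc38a4 in G9a-Glp epiblast (0.426) and maternal Gm32885 in Dnmt1 ExE (1.66). One fit of all groups lost Gm32885 in Eed epiblast (-1.24), no filter lost total Slc38a1 in Eed epiblast (-0.34), a robust variance lost Slc38a4 in Eed ExE (4.05), and a minimum of 1 read gained Gm32885 in Rnf2 ExE (1.19). Without the libraries whose targeted mRNA was not low, Rnf2 ExE, left with 2 libraries, lost the Slc38a1 ratio (1.37), total Slc38a4 (0.372), total Gm32885 (-0.836), the maternal (2.52) and paternal (0.346) levels of Slc38a4, maternal Slc38a1 (0.919) and paternal Gm32885 (-0.872). Paternal Slc38a4 in G9a-Glp epiblast (0.485) and maternal Gm32885 in Dnmt1 ExE (1.55) were lost likewise. The cause of these changes was not tested.

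Leaving out 1 library at a time changed a call at least once for the following ratios and totals, whose values ran over these ranges. Allelic ratios were -1.44 to -1.14 for Gm32885 in Eed epiblast, 2.16 to 3.40 for Slc38a4 and 0.965 to 1.52 for Gm32885 in Rnf2 ExE, 3.66 to 4.37 for Slc38a4 in Eed ExE and -2.01 to -1.36 for Gm32885 between wild-type tissues. Total levels were -0.345 to -0.267 and -0.384 to -0.298 for Slc38a1 in Rnf2 and Eed epiblast, 0.442 to 0.557 and 0.217 to 0.349 for Slc38a1 in G9a-Glp and Eed ExE, and -1.08 to -0.829 for Gm32885 in Dnmt1 ExE. The maternal level of Gm32885 in Rnf2 ExE reversed, from -0.0996 to 0.817, without wild-type ExE 8, and was otherwise as low as -0.292 without 1 library.

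Counts of genes called moved by over 1.5 times between settings; each is given with the range over the alternatives in parentheses. For the allelic ratio they were 65 (24 to 102), 155 (56 to 184), 64 (21 to 109) and 95 (25 to 131) in Dnmt1, G9a-Glp, Rnf2 and Eed epiblast, and 66 (15 to 75), 96 (39 to 112), 83 (15 to 90) and 237 (152 to 270) in ExE. For total level they were 1368 (599 to 2430), 3229 (2247 to 3951), 2858 (1045 to 4037) and 3417 (1678 to 4271) in epiblast, and 1770 (663 to 2205), 1376 (1002 to 2114), 2148 (532 to 2983) and 4121 (3451 to 5689) in ExE. For the parental term they were 27 (16 to 35) in epiblast and 72 (46 to 84) in ExE, for the tissue term 24 (11 to 31), and for total level between tissues 5280 (5313 to 8651). DESeq2 moved the median of all genes by over 0.1 in 8 total-level comparisons, at most by -0.689 (ExE against epiblast), and the share of calls that were higher from 53.8% to 64.4% in Eed ExE and from 100% to 77.8% between the crosses in epiblast. Depth limits Gm32885 in wild-type epiblast, where 1 library had 19 reads, and rounding limits the size of every Slc38a4 change in ExE.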

Other observations

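After the values were seen, the sex given in the labels was set beside the Slc38a1 maternal share in ExE. Wild-type BDF1xCAST females had 29.0 to 40.9% (n = 3) and males 12.5 to 30.4% (n = 4). CASTxBDF1 females had 23.8 to 33.2% (n = 3), and the male had 6.03%. In epiblast of BDF1xCAST, females had 44.9 to 46.3% and males 38.9 to 50.85%. In the knockout ExE libraries the shares ran from 38.6 to 57.2% over both sexes, except for the female Dnmt1 ExE 2 at 19.1%. The part of sex in the Slc38a1 bias was not tested.

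Other genes within 1 Mb of Slc38a4 changed in total level, and their allelic ratio passed in no knockout comparison in which it was tested. Gm33205, a noncoding RNA gene beyond Gm32885, was higher in wild-type ExE than in epiblast (log2 2.75; edgeR adjusted p = 3.7e-05) and rose in ExE of G9a-Glp (0.92; edgeR adjusted p = 0.0461) and Eed (1.10; edgeR adjusted p = 0.00418). Amigo2, a cell adhesion protein gene, fell in ExE of Dnmt1 by 1.40, of G9a-Glp by 1.01 and of Rnf2 by 0.92 on the log2 scale. Tmem106c rose in epiblast of G9a-Glp (2.05), Rnf2 (1.69) and Eed (1.75).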
